A study of Mus musculus with 6 samples.

Results

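The 51 splicing genes described here encode SR proteins, hnRNPs, core and U1 or U2 snRNP proteins and the SF3a and SF3b subunits of the U2 snRNP. They were taken by name: protein-coding genes of GENCODE M21 whose symbols start with *Srsf*, *Hnrnp*, *Snrp*, *Sf3a* or *Sf3b*, without *Snrpn*, out of 21938 protein-coding genes. The families held 11 *Srsf*, 20 *Hnrnp*, 11 *Snrp*, 3 *Sf3a* and 6 *Sf3b* genes. Acetylation of lysine 56 of histone H3 (H3K56ac) had been mapped by ChIP-seq in mouse embryonic stem cells (mESCs) of the V6.5 line, grown on feeder cells. The cells had been infected with lentivirus for a scrambled shRNA (Scramble) or an shRNA against *Sirt6*, a deacetylase of this residue, and each group had 2 H3K56ac libraries and 1 input library. The study asked what loss of *Sirt6* does to H3K56ac, but the file analysed here was 1 set of 11106 merged peak positions on mm10 that pools both groups. It gives no height, no depth and no library of origin. No value below therefore separates Scramble from *Sirt6* knockdown cells, no replicate error exists and no test between conditions was made. The paper lists more peaks for each knockdown library than for either Scramble library, so the groups need not contribute equally to the set. Of the mESC check genes, all 8 pluripotency markers had peak sequence less than 1 kb from a transcript start, and 0 of 8 fibroblast markers of feeder cells did. Counting peaks with their midpoint within 1 kb it was 6 of 8, without *Sox2* and *Esrrb*.

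Pre-mRNA splicing is carried out by the spliceosome, which is built from small nuclear RNAs and their proteins (snRNPs). The Sm proteins form the ring around most of these RNAs, U1 marks the 5′ splice site, and SF3a and SF3b hold U2 on the branch point. SR proteins mostly promote the use of nearby splice sites by binding exonic sequences, while hnRNPs coat the nascent RNA and often repress splice sites. Many genes of SR proteins and hnRNPs also regulate their own transcripts through alternative exons, and nearly all are expressed broadly. H3K56ac lies at the DNA entry point of the nucleosome and is found at active promoters and enhancers.

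A promoter peak was a merged peak whose midpoint lay within 1 kb of any annotated transcript start of the gene, and 42 of the 51 members had one. This was 82.4% of the members (Wilson 95% interval 69.8 to 90.4, which covers counting error only), beside 33.9% of all protein-coding genes. The members had a median of 5 annotated starts beside 3 over all genes, so a peak could be counted through more of them. With the 5′ end of the gene record as the only start the shares were 62.7% and 29.8%. The members also differed from other genes in base composition. A promoter counted as CpG-rich when the observed over expected CpG ratio in the 500 bp on either side of the gene's 5′ end was above 0.6, which held for 44 of the 51 members and 45.9% of all genes. Among all CpG-rich genes 57.6% had a promoter peak, and among the CpG-rich members 37 of 44 did. Of the 7 members with a lower ratio, 5 had a promoter peak. For *Hnrnpf*, *Hnrnpl*, *Snrpa1* and *Snrpc* the low ratio was a matter of which start was used, since at the representative transcript start (the best-supported principal transcript) their ratios were 0.782, 1.01, 0.725 and 0.755. By the looser count of any peak base within 1 kb of a start, 44 members qualified. This was 86.3%, beside 35.7% of all genes and 60.4% of CpG-rich genes. By the stricter count of a representative start that lies inside a peak, 32 members qualified. This was 62.7%, beside 20.0% of all genes and 34.8% of CpG-rich genes.

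**Figure D1:**
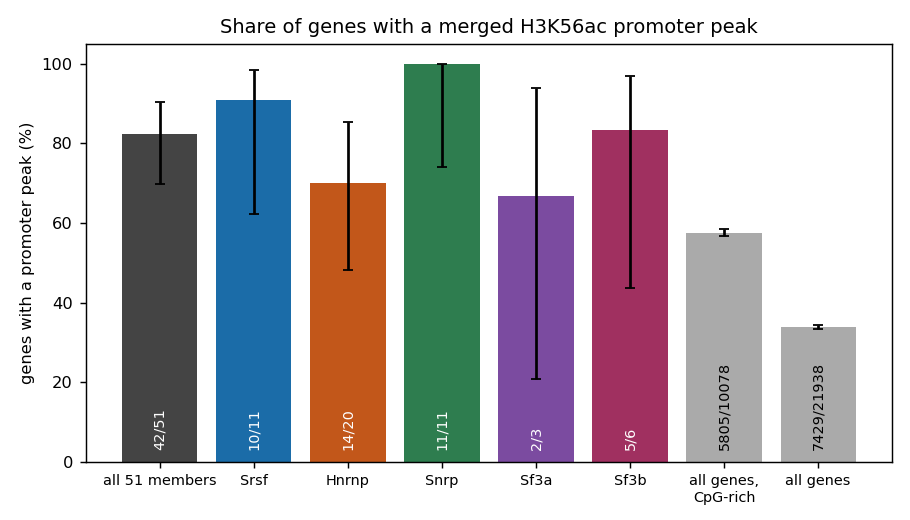
Share of genes with a promoter peak (y axis, percent) for the 51 members, for each of the 5 families, for all CpG-rich genes and for all protein-coding genes, with the count in each bar and Wilson 95% intervals as error bars. *Snrp* stood at 11 of 11 and *Hnrnp* at 14 of 20, and the intervals of the small families were wide.

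To show the promoters themselves, the 250 bases before the RefSeq start (GRCm38.p6, strand of the gene) are given for the member with the widest peak in the *Hnrnp*, *Srsf*, *Snrp* and *Sf3b* families and for 3 hnRNP genes with no promoter peak. Capitals mark matches to short motifs on either strand: the SP/KLF box GGGCGG, then the CCAAT box, the TATA box TATAAA, the E-box CACGTG and the CRE, whose letters are TGACGTCA.
Hnrnpu (chr1:178337816-178338065, minus strand): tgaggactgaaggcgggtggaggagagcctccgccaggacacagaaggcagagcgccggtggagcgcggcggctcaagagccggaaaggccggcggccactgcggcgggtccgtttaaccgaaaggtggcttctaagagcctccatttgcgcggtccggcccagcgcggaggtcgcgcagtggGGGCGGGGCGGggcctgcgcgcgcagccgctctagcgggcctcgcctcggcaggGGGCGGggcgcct
Srsf3 (chr17:29032410-29032659, plus strand): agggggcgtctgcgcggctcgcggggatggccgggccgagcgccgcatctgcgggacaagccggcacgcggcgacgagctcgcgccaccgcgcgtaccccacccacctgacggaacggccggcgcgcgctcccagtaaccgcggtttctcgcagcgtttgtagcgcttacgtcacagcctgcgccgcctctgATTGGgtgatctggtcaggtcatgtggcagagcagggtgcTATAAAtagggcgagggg
Snrpa (chr7:27196272-27196521, minus strand): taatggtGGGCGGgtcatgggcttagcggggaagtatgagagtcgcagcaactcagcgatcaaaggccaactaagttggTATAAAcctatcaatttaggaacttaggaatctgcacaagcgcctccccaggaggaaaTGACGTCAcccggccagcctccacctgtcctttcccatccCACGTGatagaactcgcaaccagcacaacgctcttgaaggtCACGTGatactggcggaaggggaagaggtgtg
Sf3b3 (chr8:110846804-110847053, minus strand): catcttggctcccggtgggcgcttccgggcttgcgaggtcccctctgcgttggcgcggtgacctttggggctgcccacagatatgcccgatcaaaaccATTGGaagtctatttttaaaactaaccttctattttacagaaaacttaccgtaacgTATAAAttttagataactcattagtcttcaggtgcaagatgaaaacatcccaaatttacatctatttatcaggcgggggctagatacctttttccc
Hnrnpa1 (chr15:103240147-103240396, plus strand): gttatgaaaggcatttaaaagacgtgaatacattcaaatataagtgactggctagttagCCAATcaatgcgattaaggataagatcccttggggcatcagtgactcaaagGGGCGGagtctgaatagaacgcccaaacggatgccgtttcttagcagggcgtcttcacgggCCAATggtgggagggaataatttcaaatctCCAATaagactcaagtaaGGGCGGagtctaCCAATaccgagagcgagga
Hnrnpa2b1 (chr6:51469846-51470095, minus strand): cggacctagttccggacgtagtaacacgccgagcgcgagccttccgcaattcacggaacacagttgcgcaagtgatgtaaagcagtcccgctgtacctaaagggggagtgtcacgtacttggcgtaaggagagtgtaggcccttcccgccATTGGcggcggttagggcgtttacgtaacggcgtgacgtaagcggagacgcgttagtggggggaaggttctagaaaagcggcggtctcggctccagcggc
Hnrnpc (chr14:52104022-52104271, minus strand): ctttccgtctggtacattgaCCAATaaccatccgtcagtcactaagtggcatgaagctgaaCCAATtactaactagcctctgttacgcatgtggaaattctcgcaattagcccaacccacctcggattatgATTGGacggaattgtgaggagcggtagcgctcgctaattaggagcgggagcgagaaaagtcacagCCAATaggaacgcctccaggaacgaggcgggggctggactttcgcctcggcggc
The first 4 windows belong to peaks of 3696 to 5340 bp, yet they ranged from 32 and 35 CpG dinucleotides in *Hnrnpu* and *Srsf3* down to 12 and 11 in *Snrpa* and *Sf3b3*. The 3 windows without a promoter peak held 11, 28 and 17 CpG dinucleotides in *Hnrnpa1*, *Hnrnpa2b1* and *Hnrnpc*. Both *Hnrnpa1* and *Hnrnpc* held 4 CCAAT boxes. *Hnrnpa0* and *Sf3a2*, not shown and also without a promoter peak, held 46 and 37 CpG dinucleotides in the same span. In windows of 300 bases the median was 26 in 7 members without a promoter peak and 24.5 in 38 with one.

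The SR protein genes carried a promoter peak in 10 of 11 cases, with a median width of 2700 bp beside 1274 bp over all genes with a promoter peak. Intervals for a median (binomial order statistics, 95%) were wide at these numbers, from 1342 to 3770 bp for *Srsf*. *Srsf3*, which encodes the smallest SR protein, had the widest at 3793 bp, from -1192 to 2600 bp around the start nearest to its midpoint. *Srsf2* encodes the SR protein SC35. Its peak of 3770 bp covered 73.1% of the 3-exon gene, the largest part of any member's body. *Srsf10* followed with 3264 bp, *Srsf4* with 2912 bp and *Srsf1*, the founding SR protein SF2/ASF, with 2905 bp. *Srsf7* had 2495 bp, *Srsf5* 1972 bp, *Srsf11* 1757 bp and *Srsf6* 1342 bp. The narrowest peak of all 42 was that of *Srsf9*, at 669 bp. It lay wholly upstream, from -713 to -45 bp, and so did not reach the start. Midpoints lay downstream of the start in 8 of the 10, and the *Srsf6* peak was the most upstream at 396 bp before the start. *Srsf12*, whose product represses splicing and is less widely expressed, was the one *Srsf* gene with no promoter peak. Its nearest peak midpoint was 37930 bp away, beyond the 3′ end of the gene, and its CpG ratio of 0.574 was the only one below 0.6 in the family.

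The hnRNP genes were the most uneven family, with 14 of 20 having a promoter peak and widths from 723 to 5340 bp. *Hnrnpu*, which encodes a large nuclear matrix and RNA-binding protein, had the widest peak of all members, wider than 99.5% of promoter peaks of all genes. It ran from -2739 to 2600 bp around a start inside the gene and touched 4 of the 14 exons of its representative transcript. *Hnrnpa3* had 4695 bp placed almost evenly about its start, from -2341 to 2353 bp. *Hnrnpf* had 3845 bp, *Hnrnpk*, a poly(C)-binding protein, 3293 bp, *Hnrnpul1* 3268 bp and *Hnrnpab* 2975 bp. In the middle of the range stood *Hnrnpr* with 2536 bp, *Hnrnph3* with 2252 bp and *Hnrnpm* with 1990 bp. The narrower peaks were those of *Hnrnpdl* with 1408 bp, *Hnrnpll* with 1241 bp, *Hnrnpd* with 1178 bp, *Hnrnph1* with 1162 bp and *Hnrnpl* with 723 bp. The family median was 2394 bp with an interval from 1178 to 3845 bp.

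Several hnRNP genes have many annotated starts, and the count then turned on which start a peak was read against. In 6 of the 14 the midpoint lay more than 1 kb from the representative start, against 12.4% of all genes with a promoter peak. *Hnrnpl*, an hnRNP that binds CA repeats, shows this best. Its counted peak of 723 bp had its midpoint 4416 bp downstream of the representative start and 200 bp from an alternative one. A peak of 4872 bp (chr7:28807885-28812756) held the representative start, but its midpoint lay -569 bp from it, so that it was not the nearest pair of peak and start. With the widest peak within 1 kb in place of the nearest one the family median was 2755.5 bp. *Hnrnpf* likewise had a second peak of 4195 bp (chr6:117905512-117909706) over the representative start, with its midpoint 814 bp downstream, and the midpoint of its counted peak lay 11066 bp downstream of that start. For *Hnrnpd*, which encodes AUF1, the peak began 844 bp downstream of the representative start and was counted through an alternative start 955 bp away. For *Hnrnpdl* and *Hnrnpm* the peaks began 721 and 1417 bp downstream of the representative start. The midpoints of these hnRNP peaks had a median of -34.5 bp from the nearest start, but of 606 bp from the representative start.

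**Figure D2:**
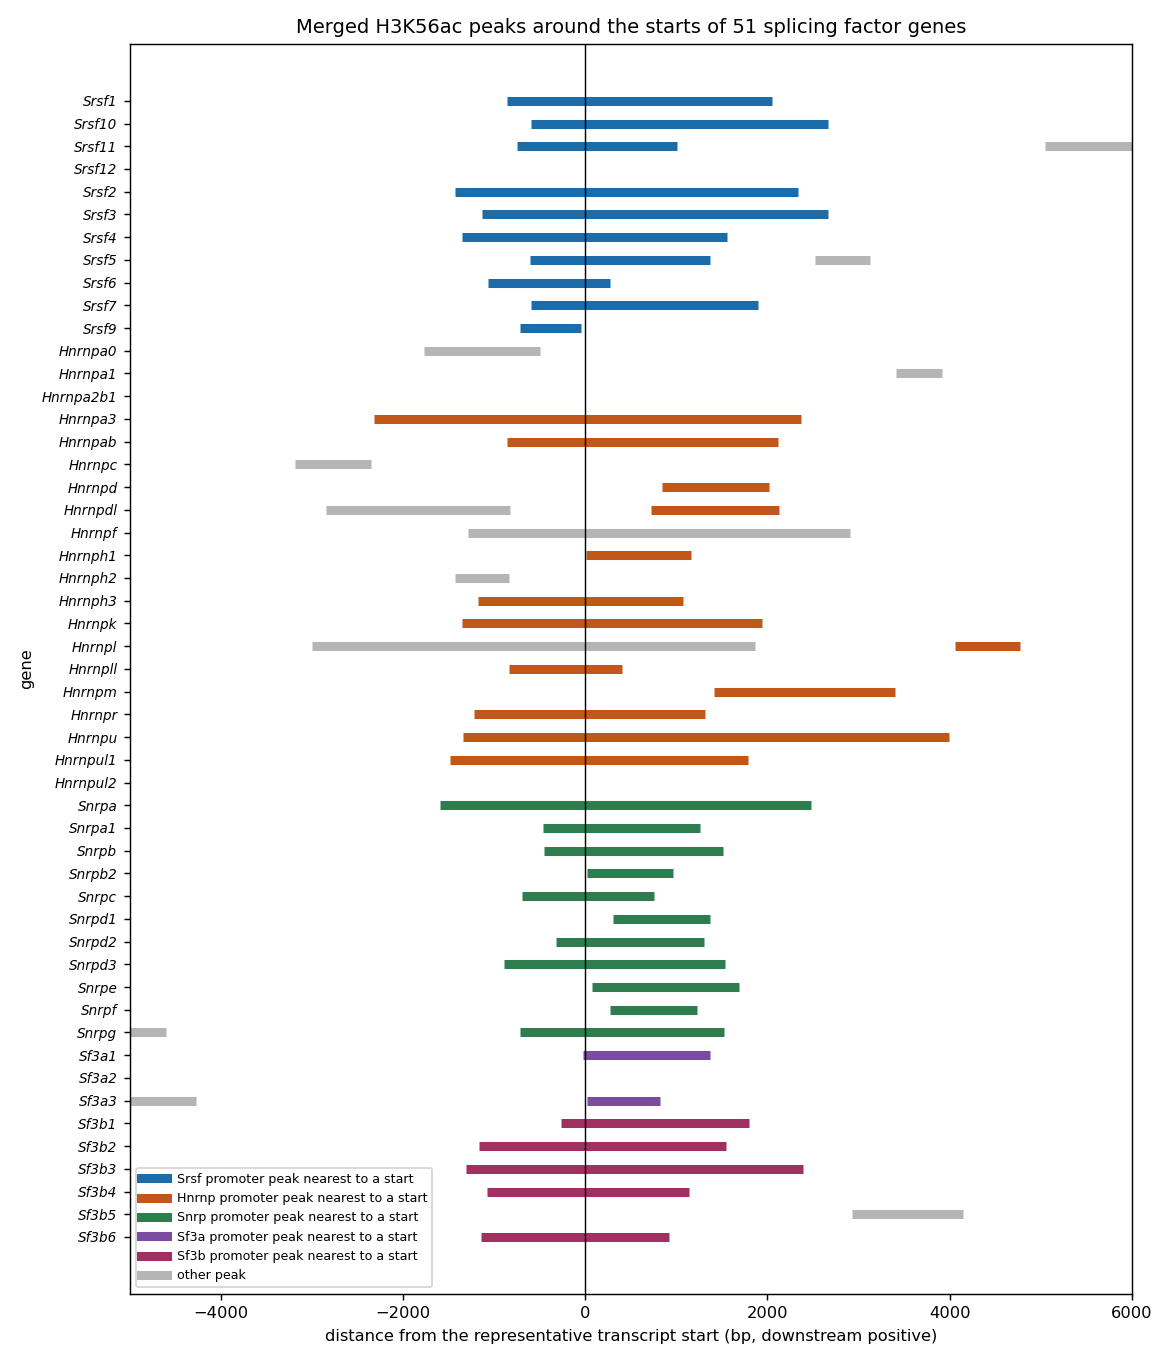
Merged peaks (bars) of each of the 51 members, drawn by distance in bp from the representative transcript start on the x axis, with genes on the y axis grouped by family; coloured bars are the promoter peak nearest to a start and grey bars other peaks. The 11 *Snrp* bars all reach the first kilobase of the gene, whereas *Hnrnpl* has a grey bar of 4872 bp over the start, and the counted *Hnrnpf* peak lies 11066 bp downstream, outside the axis.

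All 11 *Snrp* genes had a promoter peak, with a median width of 1626 bp (interval 952 to 2422 bp), less than in the *Srsf* and *Hnrnp* families though the intervals overlap. Among the Sm ring proteins, *Snrpd3* had 2422 bp, *Snrpg* 2244 bp, *Snrpb* 1959 bp, *Snrpd2* 1626 bp, *Snrpe* 1609 bp, *Snrpd1* 1070 bp and *Snrpf* 952 bp. Of the U1 proteins, *Snrpa*, which encodes the A protein, had 4077 bp and *Snrpc*, which encodes the C protein, 1451 bp. Of the U2 proteins, *Snrpa1* (the A′ protein) had 1725 bp and *Snrpb2* (the B″ protein) 938 bp, the narrowest of the family. *Snrpa* was the only *Snrp* peak above 3 kb. These peaks sat further into the gene than those of the other large families, with a median offset of 349 bp beside 86 bp over all genes, though its interval from -74 to 745 bp spans the latter. The order depended on the limit: with midpoints within 500 bp of a start the *Snrp* median was 44 bp, beside 132.5 bp in *Srsf* and 50 bp over all genes. The farthest were *Snrpf* at 746 bp and *Snrpd1* at 745 bp, whose peaks began 271 and 210 bp past the start and left it uncovered. The most upstream was *Snrpd3* at 143 bp before the start. At 500 bp downstream of the representative start 11 of 11 *Snrp* genes were covered by a peak, while at 500 bp upstream 4 of 11 were. In the *Srsf* family the order was the other way round, with 8 of 11 at the downstream and 10 of 11 at the upstream position.

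The SF3a and SF3b genes, whose products form the branch point side of the U2 snRNP, had promoter peaks in 2 of 3 and 5 of 6 cases. *Sf3b1*, the largest SF3b subunit and a gene often mutated in myelodysplasia, had a peak of 2072 bp with its midpoint 659 bp downstream. *Sf3b3* had the widest of the group at 3696 bp, *Sf3b2* had 2714 bp, *Sf3b4* 2217 bp and *Sf3b6*, which contacts the branch point adenosine, 2074 bp. All 5 SF3b peaks were wider than the median of all genes. Both SF3a peaks were narrower than any SF3b peak. *Sf3a1* had 1396 bp, above that median, and *Sf3a3* had 797 bp, below it. Both SF3a peaks began close to the start, at -31 and -85 bp. *Sf3b4*, which binds upstream of the branch point, had the best centred peak of the group, 30 bp from its start.

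The 9 members with no promoter peak were *Srsf12*, 6 *Hnrnp* genes, *Sf3a2* and *Sf3b5*. *Hnrnpa1* and *Hnrnpa2b1* encode the most abundant hnRNP A/B proteins. The merged set held a peak of 502 bp inside *Hnrnpa1* that touched 2 exons of its representative transcript, with an intronic midpoint 3605 bp from the nearest start. The nearest peak to any *Hnrnpa2b1* start had its edge 83277 bp away. For *Hnrnpc*, which encodes the core hnRNP that packages nascent RNA, a peak of 830 bp lay 2742 bp upstream. For *Hnrnpul2* the nearest midpoint was 17285 bp away, and for *Sf3a2* 42789 bp away. *Hnrnph2* and *Hnrnpa0* were the members nearest to the 1 kb limit from outside, with midpoints 1134 and 1140 bp upstream and nearest peak edges 841 and 502 bp from the start. The nearest from inside were *Hnrnpd* at 955 bp and *Hnrnpm* at 922 bp. *Sf3b5* depended on the annotation. Its peak of 1221 bp (chr10:13008267-13009487) lay 3534 bp from the GENCODE start, where the CpG ratio was 0.139, but the curated RefSeq start of the same gene lay inside that peak, 427 bp from the midpoint. With curated RefSeq starts the other 8 remained without a promoter peak, and their nearest midpoints were 1134 to 90090 bp away. The same starts took the promoter peak from *Hnrnpd*, *Hnrnpdl*, *Hnrnpm* and *Hnrnpu*, whose nearest midpoints were then 1432, 1424, 1009 and 1340 bp away, although the *Hnrnpu* peak still held the RefSeq start.

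The representative starts of 5 of these 9 genes lay within 1 kb of a start of another protein-coding gene on the opposite strand: *Cbx5* beside *Hnrnpa1*, *Cbx3* beside *Hnrnpa2b1*, *Gla* beside *Hnrnph2*, *Ttc9c* beside *Hnrnpul2* and *Plekhj1* beside *Sf3a2*. Over all 51 members 17 had such a neighbour, which was 33.3% beside 10.8% of all genes. Exact copies of the sequence around the starts were rare elsewhere in the genome. Copies with mismatches, which can also keep a read from a single location, were not counted. Windows of 75 bases, the read length in the paper's methods, were placed across the 2 kb around the start. The paper's reporting summary gives a longer read. Of these windows, 100% were unique in the chromosomes and unplaced scaffolds for 8 of the 9 genes and 96.3% for *Hnrnpa1*. Among the 42 members with a promoter peak the lowest value was 93.1%, for *Srsf5*, and 34 were fully unique. The values with and without a promoter peak thus lay in the same range. Whether the missing peaks go with the mark, the depth or the peak calling cannot be told apart in merged positions.

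Over all 42, the promoter peaks of the members had a median width of 2073 bp (interval 1626 to 2536 bp), beside 1274 bp over all genes and 1388 bp over CpG-rich genes with a promoter peak (interval 1344 to 1435 bp). Of the 42, 33 were wider than the median of all genes, 20 were above its upper quartile of 2108 bp and 2, *Srsf9* and *Hnrnpl*, were below its lower quartile of 738 bp. A width of 3 kb or more was found in 10 members, *Hnrnpu*, *Hnrnpa3*, *Snrpa*, *Hnrnpf*, *Srsf3*, *Srsf2*, *Sf3b3*, *Hnrnpk*, *Hnrnpul1* and *Srsf10*, which was 23.8% beside 7.61% of all genes with a promoter peak. Width ran only loosely with other features of the 42 genes: the Spearman coefficient was 0.144 with the CpG ratio, 0.123 with gene length and 0.127 with the number of annotated starts. These are descriptions across genes of 1 peak set, which share the same libraries.

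**Figure D3:**
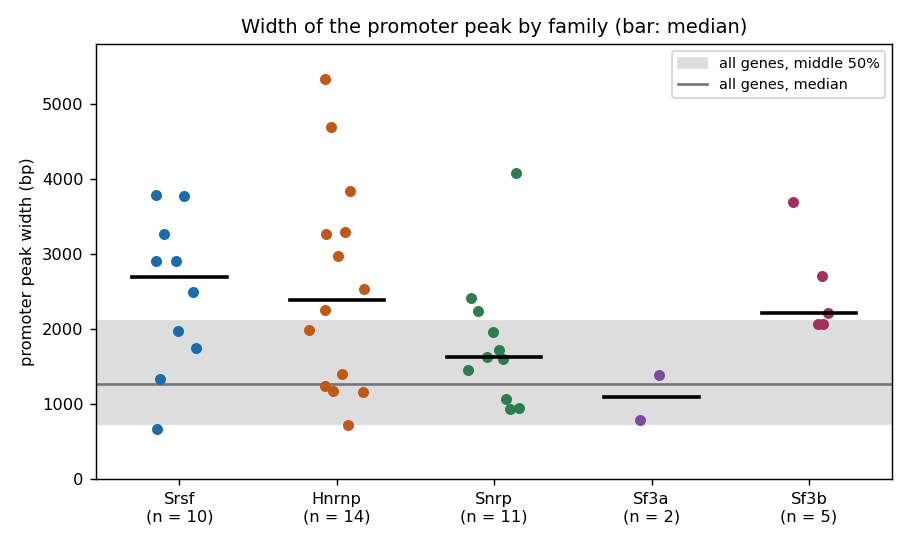
Width of the promoter peak in bp (y axis) for each of the 42 members with one, by family, with the family median as a black bar; the grey band spans the middle 50% of all genes with a promoter peak, from 738 to 2108 bp, and the grey line is their median of 1274 bp. All 5 *Sf3b* points lie above the line, and the *Hnrnp* points spread from 723 to 5340 bp.

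The wider peaks reached further in both directions. The median upstream edge was at -1030.5 bp and the median downstream edge at 1282 bp, beside -687 and 883 bp over all genes. The start lay inside the peak in 38 of 42 members, which was 90.5% beside 72.0%, and the exceptions were *Srsf9*, *Hnrnpd*, *Snrpd1* and *Snrpf*. The side of the start was much the same as elsewhere, with 27 midpoints downstream, or 64.3%, beside 61.3% of all genes. The median offset was 117 bp (interval -12 to 349 bp), beside 86 bp, and the median absolute offset 253 bp, beside 277 bp. With the 5′ end of the gene record as the only start, the signed offset was 428.5 bp beside 240.5 bp. The absolute offset was then 428.5 bp beside 394 bp. Family medians of the signed offset ran from -34.5 bp in *Hnrnp* over 132 bp in *Sf3b* and 186.5 bp in *Srsf* to 349 bp in *Snrp* and 490 bp over the 2 *Sf3a* peaks, and the intervals of the *Hnrnp*, *Srsf* and *Snrp* medians overlapped. In 34 of 42 members the peak extended past the first exon, beside 71.8% of all genes. The members are short, with a median length of 11474 bp beside 22831 bp among genes with a promoter peak, and peaks covered a median of 13.2% of the gene body beside 4.29%.

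**Figure D4:**
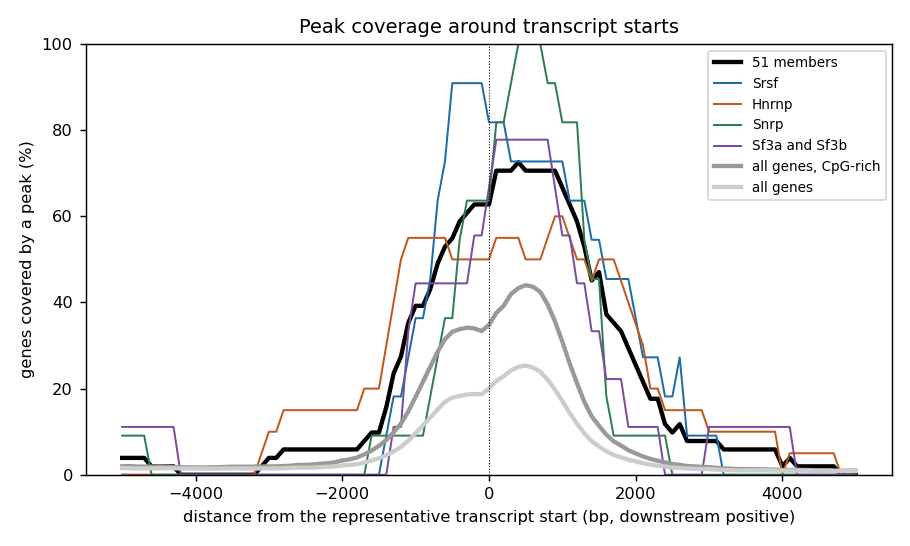
Percent of genes covered by any merged peak (y axis) at each 100 bp step of distance from the representative start (x axis, bp), for the 51 members, the families, all CpG-rich genes and all genes. At 500 bp downstream 70.6% of the members were covered beside 44.0% of CpG-rich and 25.3% of all genes, and at 2000 bp downstream 25.5% beside 4.97% and 3.11%.

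Few of these genes had a peak in the body besides the counted promoter peak. Such a peak was present in 4 of the 42, or 9.52%, beside 15.8% of all genes with a promoter peak. The latter are longer, with a median of 22831 bp beside 11474 bp. The further peaks of *Hnrnpf* and *Hnrnpl* hold the representative start and so do not lie beyond the promoter. *Srsf11* had a peak of 1130 bp over an exon 5614 bp from its 5′ end and *Srsf5* one of 607 bp at 2826 bp. Another peak within 10 kb of the gene was found for 20 of 42, or 47.6% beside 42.0%, and most of those outside the gene were promoter peaks of a neighbour. *Hnrnpdl* had the most on its 5′ side, with peaks at -1401, -5141 and -8445 bp from its 5′ end, the nearest of them 2022 bp wide at the start of the divergent gene *Enoph1*.

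The promoter peak itself was shared: 10 of the 42 members had theirs in common with another protein-coding gene, which was 23.8% beside 25.7% of all genes. The pairs were *Srsf2* with *Mfsd11*, *Srsf7* with *Ttc39d*, *Srsf11* with *Lrrc40*, *Hnrnph3* with *Pbld2*, *Hnrnpk* with *Rmi1*, *Snrpa* with *BC024978*, *Snrpd2* with *Qpctl*, *Snrpd3* with *Gucd1*, *Sf3a1* with *Ccdc157* and *Sf3b3* with *Cog4*. In these cases the mark cannot be assigned to one gene of the pair. Of the 10 widest peaks of the members, those of *Srsf2*, *Snrpa*, *Sf3b3* and *Hnrnpk* were shared ones.

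Promoter motifs were read in RefSeq windows from 250 bases before to 50 bases after the start, which were present for 45 members and 16521 of all genes. The members without a window were *Hnrnpll*, *Hnrnpul2*, *Sf3b4*, *Sf3b5*, *Snrpb* and *Snrpd1*. A match was counted on either strand. The ETS motif CCGGAAGT was present in 7 members, *Srsf4*, *Srsf5*, *Hnrnpd*, *Snrpe*, *Sf3a1*, *Sf3a3* and *Sf3b2*, which was 15.6% beside 5.62% of all genes, 9.36% of CpG-rich genes and 11.8% of genes with a promoter peak. All 7 had a promoter peak, beside 38 of all 45 members with a window. Over all genes 697 of the 929 with the motif had one, beside 5916 of all 16521. The palindrome CTCGCGAG was present in 3, *Srsf4*, *Srsf10* and *Hnrnph1*, or 6.67% beside 1.30% of all and 2.41% of CpG-rich genes. The SP/KLF box was in 73.3% of members, beside 48.4% of all and 71.9% of CpG-rich genes, and in 10 of 11 *Srsf* windows. The CCAAT box was in 48.9% of members beside 38.6% of all and 37.9% of CpG-rich genes and was most common in the *Hnrnp* family, with 13 of 18, including 5 of the 7 windows of members without a promoter peak. A TATAAA match was found in 6 members, 13.3% beside 12.9% of all and 5.78% of CpG-rich genes, among them *Srsf2* and *Srsf3*. The E-box was in 11.1% beside 8.04% of all and 10.9% of CpG-rich genes. In the same order the CRE was in 4.44%, or 2 windows, beside 2.41% and 3.59%. The NRF1 motif GCGCATGC was in 2.22% beside 3.80% and 6.46%. The YY1 motif AAGATGGC was in 4.44%, or 2 windows, beside 3.28% and 5.04%. The octamer ATTTGCAT was in 0 of 45 windows beside 1.62% and 1.185%. These are matches of letters in a window, and nothing was measured on binding.

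The other splicing genes were grouped into lists outside the name rule, by function or, for the last list below, as tissue-restricted regulators. No expression was measured, so the grouping is not a result of these data. Promoter peaks were present at 21 of 24 further snRNP and tri-snRNP proteins (not at *Snrnp70*, *Txnl4a* or *Usp39*), 10 of 11 genes of 3′ splice site recognition (not at *Phf5a*), 13 of 15 genes of the catalytic core and exon junction complex (not at *Isy1* or *Magohb*) and 14 of 15 SR-related proteins and SR kinases (not at *Srpk3*). They were also present at 9 of 12 snRNP assembly genes (not at *Gemin8*, *Prmt5* or *Wdr77*) and at 11 of 13 hnRNP-related genes with other names (not at *Ptbp1* or *Pcbp1*). Median widths of these lists ran from 1284 bp for snRNP assembly to 2517.5 bp for 3′ splice site recognition. The widest single peak was the 4700 bp at *Ewsr1*, which encodes an RNA-binding protein, and *U2af2*, the large subunit that reads the polypyrimidine tract, had 3658 bp. Among regulators known from brain, muscle or epithelium 7 of 27 had a promoter peak, 25.9% beside 33.9% of all genes, and these were *Nova1*, *Celf5*, *Qk*, *Mbnl1*, *Mbnl2*, *Rbfox2* and *Srrm4*. Their median width was 605 bp, below that of every family of members, and 20 of the 27 promoters were CpG-rich.

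**Figure D5:**
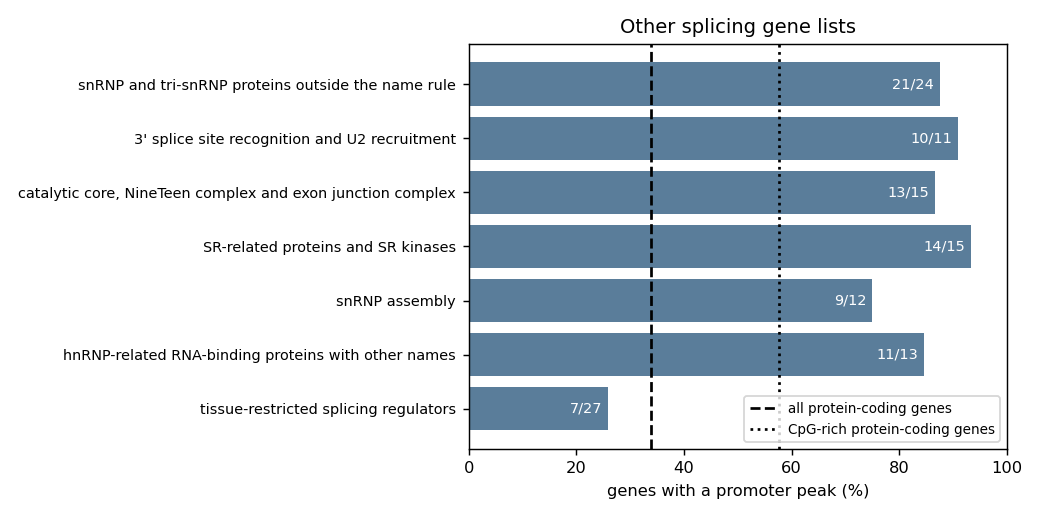
Percent of genes with a promoter peak (x axis) in 7 lists of other splicing genes (y axis), with the counts in the bars; the dashed line is the share of all protein-coding genes, 33.9%, and the dotted line that of CpG-rich genes, 57.6%. The 6 lists made by function lie between 75% and 93.3%, and the list of tissue-restricted regulators stands at 7 of 27.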

How the data were processed

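H3K56ac ChIP-seq of V6.5 mESCs comprised 6 libraries, 2 H3K56ac and 1 input from Scramble cells and as many from *Sirt6* knockdown cells, which were grouped by title. Reads were trimmed by the authors using Trim Galore. They aligned the reads to mm10 (bowtie 1.1.2), kept reads with a single reportable location and removed duplicates with Picard. They called peaks with MACS2, removed blacklisted regions and merged overlapping peaks across libraries with GenomicRanges. The deposited file holds start and end positions of these merged peaks in bp, and its name, score and strand columns carry 1 value each. The positions carry no depth per library, although the paper reports read numbers, and merging widens a peak where libraries differ in extent. The paper also lists more peaks for each knockdown library than for either Scramble library. How many merged peaks were called in knockdown cells alone cannot be read from positions. No gap between peaks in the file was under 1000 bases, so nearby peaks may have been joined as well, which would add to widths. The authors' counts per peak and their tests are not used here.

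Positions were counted from 1. Transcript starts were those of all GENCODE M21 transcripts of protein-coding genes on the assembled chromosomes. A promoter peak had its midpoint within 1 kb of a start, and with several the nearest was taken. Offsets are positive downstream. The representative start is that of the transcript with the best principal-isoform and support tags, the most upstream one in ties. Shares carry Wilson 95% intervals and medians of at least 6 genes binomial order-statistic intervals, both covering counting error over genes only. No test was run, since the merged set has no replicates, and members are described beside all protein-coding genes. The members and lists were chosen with earlier results of these data known. All members were accounted for, and 1 gene of a list of other splicing genes is not reported here. Those named in detail were the ones with no promoter peak, the extremes of width and offset per family, those nearest the limit, shared peaks and those with further peaks. Starts, limits, peak choice and shared promoters were varied. The assignment was tested on simulated peaks. Promoter windows came from RefSeq on GRCm38.p6, the assembly behind mm10. Calculations used Python 3.11.15, numpy 2.4.6 and pandas 2.3.3.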

Additional observations from a re-analysis of the deposited data

How the results depend on the processing

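Of 173 alternative values of 22 shares and medians, 161 stayed inside the 95% interval of the reported value, among them all 40 for widths. These intervals were wide for the small families, so a value inside one may still have changed much. The *Hnrnp* share, for example, went from 70% to 50% with principal transcript starts and stayed inside. With the 5′ end of the gene record as the only start, 62.7% of members and 35.0% of *Hnrnp* genes had a promoter peak, beside 29.8% of all genes, and the members' median signed and absolute offset were both 428.5 bp. With a limit of 500 bp the shares were 58.8% of members, 45.0% of *Hnrnp* and 72.7% of *Snrp* genes, beside 25.8% of all genes. A representative start inside a peak, chosen after seeing the data as were curated RefSeq starts, gave 62.7% of members and 63.6% of *Snrp* genes. Curated RefSeq starts gave 100% of *Sf3b* genes, through *Sf3b5*, but 50% of *Hnrnp* genes and 76.5% of members, beside 33.2% of all genes. With the 500 bp limit the *Snrp* median signed offset was 44 bp, in place of 349 bp. Without members near another start 1 *Sf3a* gene was left and the share was 100%. With CpG-rich genes as the comparison, the background share was 57.6% in place of 33.9%. In each of these settings the share of the members or family stayed above that of all genes under the same setting. For *Hnrnp* with the 5′ end of the gene record the margin was small, with 7 of 20 genes or 35.0% beside 29.8%. In the main setting the *Hnrnp* interval, 48.1 to 85.45%, included the CpG-rich share of 57.6%, and 17 of the 20 *Hnrnp* genes were CpG-rich. Of CpG-rich genes, 34.8% had the representative start inside a peak, beside 62.7% of members. With any peak base within 1 kb of a start it was 60.4%, beside 86.3% of members. Whether the shares stayed above those of CpG-rich genes under the remaining settings was not tested. No paired analysis was possible because a merged set gives nothing for single libraries, and for the same reason no replicate could be left out. A gene with no peak in the merged set may still carry the mark below the depth or threshold of the calls, which was not tested.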
